A study of Spermophilus dauricus with 30 samples.

Results

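Skeletal muscle of Daurian ground squirrels (*Spermophilus dauricus*) was compared between interbout arousal (IBA) and hibernation (HIB), with the soleus and the extensor digitorum longus added together. The labels call the muscles SOL and EDL. Within each state, SOL and EDL libraries with matching numbers were added, which gave 3 IBA sums and 3 HIB sums from 12 of the 30 libraries of the series. All animals are labelled WT. The other states, each with 3 sums, were summer activity (SA), before hibernation (PRE) and after hibernation (POST). The labels give no age, sex, body temperature or time within a bout, do not say which animal a library came from and do not say whether animals were pooled. P-values therefore measure the spread between these sums.

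Hibernation in ground squirrels is not continuous. Weeks of torpor, with a body temperature close to that of the surroundings and a metabolic rate far below normal, alternate with short arousals in which the animal warms itself by shivering and non-shivering heat production, stays warm for some hours and then cools again. Transcription and translation are known to be largely suppressed in torpid tissue and to resume on rewarming. The soleus is a postural muscle rich in slow, oxidative fibres, and the extensor digitorum longus is a fast muscle.

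The sums held 68781589 to 79177787 counts in IBA and 65010583 to 72598231 in HIB. SOL gave 47.8% to 50.8% of the counts of an IBA sum and 45.5% to 49.3% of those of an HIB sum, and the 50 most abundant identifiers took 26.6% to 30.5% in IBA and 28.5% to 31.6% in HIB. The file lists 27394 identifiers, which are plain numbers or carry a text prefix, and does not pair them with gene names. For this reason the labelled tissue could not be checked against marker genes, no function is given to any identifier, and no more than 2 identifiers that were higher and 2 that were lower are printed. Of the 27394, 4307 had no count, 5781 had counts but fell under the filter on low counts, and 17306 were tested. Among those tested, 771 had a mean under 10 counts in the HIB sums and 635 in the IBA sums, so they passed the filter mainly through other states.

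In a principal component analysis of log2 CPM (counts relative to the size of the sum, scaled between sums by the TMM method), the IBA sums lay apart from the HIB sums. On the first component, with 18.7% of the variance, IBA scored 1.79 to 9.38 and HIB 26.9 to 32.1, while PRE scored -10.2 to 4.11, so that 1 of the 3 IBA sums lay in the range of PRE and the other two between PRE and HIB. On the second, with 14.5%, IBA scored 10.4 to 25.9, with 1 of the 3 sums in the HIB range of 24.8 to 36.4, and PRE scored -43.6 to -26.3. One sum outside the comparison stood apart from its group: POST replicate 3 scored 25.8 on the second component, against -48.4 and -37.7 for the other POST sums. It takes part in the estimate of spread that all 5 states share, and results that move without it are given both ways.

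**Figure D1:**
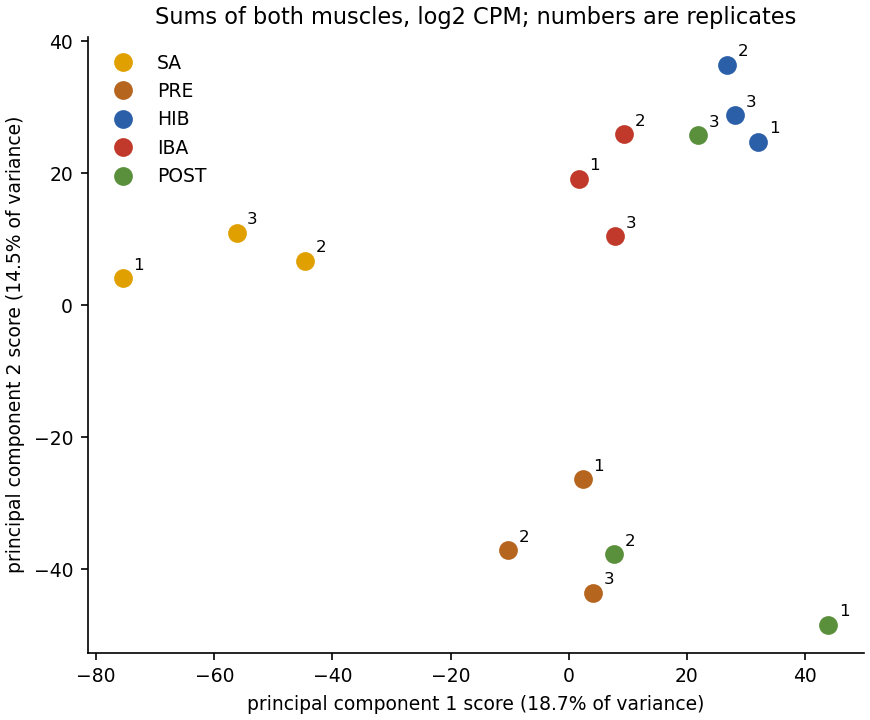
Scores of the 15 sums on the first component (horizontal, 18.7% of the variance) and the second (vertical, 14.5%), coloured by state and numbered by replicate. On the first axis 1 IBA sum lies in the range of PRE, on the second 1 lies in that of HIB, and POST replicate 3 lies with the IBA and HIB sums.

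Over all 17306 identifiers, 2 sums differed by a root mean square of 0.70 to 0.81 in log2 CPM between IBA and HIB, against 0.67 to 0.79 within IBA and 0.66 to 0.73 within HIB. Between IBA and PRE the 9 distances ran from 0.76 to 0.93, and between HIB and PRE from 0.78 to 0.90. The distance between IBA and HIB was thus little larger than that between replicates, and IBA sums were on the whole closer to HIB sums (median 0.77) than to PRE sums (median 0.83).

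Arousal and hibernation differed strongly in a few identifiers. In edgeR's quasi-likelihood test, 3 of 17306 identifiers (0.0173%) passed an adjusted p of 0.05 between IBA and HIB, and all 3 were higher in IBA. For each of the 3, every HIB sum was below all 12 sums of the other states, which held for 264 (1.53%) of all tested, and IBA sums overlapped PRE sums. Leaving out any HIB sum, or the second or the third IBA sum, left a count of 1. In bulk RNA a lower level can come from fewer cells of a type or from less RNA per cell, and these cannot be told apart. All levels here are relative to the size of the sum, so a change shared by all RNA of a muscle would not be seen.

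The first of the 3 was Novel00010, an identifier with a text prefix. Its IBA sums held 11.7, 14.0 and 8.83 CPM, and its HIB sums 1.07, 1.19 and 1.57 CPM, from 646 to 1184 and from 70 to 115 counts. The lowest IBA sum was thus far above the highest HIB sum. The log2 fold change was 3.17 ± 0.32 (SE, edgeR adjusted p = 0.00173), about 8.99-fold, the smallest p of all identifiers in this comparison.

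In PRE, Novel00010 stood at 11.7, 16.7 and 15.7 CPM, and in SA at 7.11, 11.6 and 6.88 CPM. IBA and PRE overlapped, at 11.5 ± 2.59 CPM in IBA and 14.7 ± 2.64 CPM in PRE (SD, n = 3 each), with a log2 difference of -0.35 ± 0.29 (edgeR adjusted p = 0.578). HIB was below PRE by a log2 fold change of -3.52 ± 0.32 (edgeR adjusted p = 0.000549). POST sums had 13.4, 19.2 and 8.84 CPM, so that the HIB sums alone were under 2 CPM. The 2 comparisons with HIB share its sums and are not independent.

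The pattern of Novel00010 was present in both muscles. In SOL alone it averaged 11.04 ± 2.97 CPM in IBA and 0.756 ± 0.385 CPM in HIB, and in EDL 11.9 ± 3.64 CPM in IBA and 1.75 ± 0.508 CPM in HIB (SD, n = 3 each). Its log2 fold change was 3.87 ± 0.55 in the SOL libraries (edgeR adjusted p = 0.0824) and 2.76 ± 0.30 in the EDL libraries (edgeR adjusted p = 0.00294). It passed in the sums without any single sum, with log2 fold changes from 3.003 to 3.35 and adjusted p from 0.000917 to 0.0379.

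The second was identifier 101971147, the most abundant of the 3. It had 79.0, 67.5 and 64.2 CPM in the IBA sums and 22.4, 21.8 and 26.0 CPM in the HIB sums. The HIB sums were close to each other and all IBA sums were more than 2-fold above them. The log2 fold change was 1.58 ± 0.22 (edgeR adjusted p = 0.0224).

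Its PRE sums held 75.5, 56.1 and 55.5 CPM and its SA sums 54.7, 95.1 and 74.9 CPM. IBA averaged 70.2 ± 7.75 CPM and PRE 62.4 ± 11.4 CPM (SD, n = 3 each), a log2 difference of 0.17 ± 0.21 (edgeR adjusted p = 0.730). HIB lay below PRE by a log2 fold change of -1.41 ± 0.22 (edgeR adjusted p = 0.0183) and below SA by -1.68 ± 0.22 (edgeR adjusted p = 0.00360). Its POST sums, at 59.9, 75.7 and 47.0 CPM, also lay above every HIB sum.

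For 101971147 the log2 fold change between IBA and HIB was 1.76 ± 0.25 in the EDL libraries, where it passed (edgeR adjusted p = 0.0317). It was 1.38 ± 0.26 in the SOL libraries, where it did not (edgeR adjusted p = 0.264). In EDL its IBA libraries were tight, at 80.8 ± 2.41 CPM, against 23.8 ± 2.49 CPM in HIB (SD, n = 3 each). The call in the sums was lost without HIB replicate 1, 2 or 3 (edgeR adjusted p = 0.219, 0.201 and 0.120), without IBA replicate 1, 2 or 3 (edgeR adjusted p = 0.124, 0.0658 and 0.0693), without SA replicate 3 (0.0521) and without POST replicate 1 (0.0599). The log2 fold change then ran from 1.49 to 1.67.

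The third call, also an identifier with a text prefix, was of low abundance. It held 5.19, 5.96 and 5.85 CPM in the IBA sums and 1.56, 1.98 and 1.78 CPM in the HIB sums, with a log2 fold change of 1.67 ± 0.21 (edgeR adjusted p = 0.0141). Its PRE sums, at 5.14, 4.79 and 6.21 CPM, spanned the range of IBA, with a log2 difference of 0.076 ± 0.21 between IBA and PRE (edgeR adjusted p = 0.890). SOL and EDL gave nearly the same value, 1.72 ± 0.28 and 1.63 ± 0.29, and neither passed alone (edgeR adjusted p = 0.169 and 0.0877). Without any of the 3 HIB sums the call was lost (edgeR adjusted p = 0.190, 0.0761 and 0.120 without replicates 1, 2 and 3). It was also lost without IBA replicate 2 or 3 (edgeR adjusted p = 0.0658 and 0.0693) and with only the 6 sums compared (0.145).

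No identifier passed in the other direction in the edgeR fit of all 15 sums, where 712 were lower in IBA at an unadjusted p under 0.05, while DESeq2 called 64 and limma voom 10 lower. EdgeR called 1 lower with only the 6 sums compared, 1 without PRE replicate 1 and 2 in EDL alone. The clearest abundant identifier below HIB without overlap was 101961570, which did not pass by edgeR (log2 fold change -1.27 ± 0.26, adjusted p = 0.187) or by limma voom (adjusted p = 0.0505), and passed by DESeq2 (adjusted p = 0.0023). Its IBA sums held 10.7, 15.96 and 8.71 CPM and its HIB sums 29.2, 25.2 and 31.04 CPM. In PRE it stood at 11.8, 11.1 and 10.7 CPM, inside the range of IBA, and HIB was above PRE by a log2 fold change of 1.34 ± 0.26 (edgeR adjusted p = 0.0368).

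In EDL alone 101961570 fell by 1.67 ± 0.26 on the log2 scale between IBA and HIB and passed (edgeR adjusted p = 0.0417), with 8.69 ± 3.43 CPM in IBA and 27.6 ± 3.26 CPM in HIB. In SOL the difference was -0.98 ± 0.35 (edgeR adjusted p = 0.653), with 14.8 ± 4.08 CPM in IBA and 29.3 ± 3.57 CPM in HIB (SD, n = 3 each). The groups did not overlap in either muscle.

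The other identifier of that direction, 101974241, had a different pattern over the states. Its IBA sums held 7.14, 11.7 and 8.99 CPM and its HIB sums 23.6, 15.4 and 19.3 CPM, a log2 difference of -1.06 ± 0.22 that did not pass by edgeR (adjusted p = 0.187) and passed by DESeq2 (adjusted p = 0.00429) and limma voom (adjusted p = 0.0316). Its PRE sums, at 20.6, 17.1 and 18.1 CPM, lay with HIB, from which they differed by 0.059 ± 0.22 on the log2 scale (HIB over PRE, edgeR adjusted p = 0.910). IBA thus stood below PRE as well, by a log2 difference of -1.005 ± 0.22 that did not pass by edgeR (adjusted p = 0.111) and passed by DESeq2 (adjusted p = 0.00489) and limma voom (adjusted p = 0.0229), and for this identifier the arousal level was not nearer to PRE than the HIB level was. The SA sums, at 14.2, 10.8 and 10.2 CPM, overlapped IBA.

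**Figure D2:**
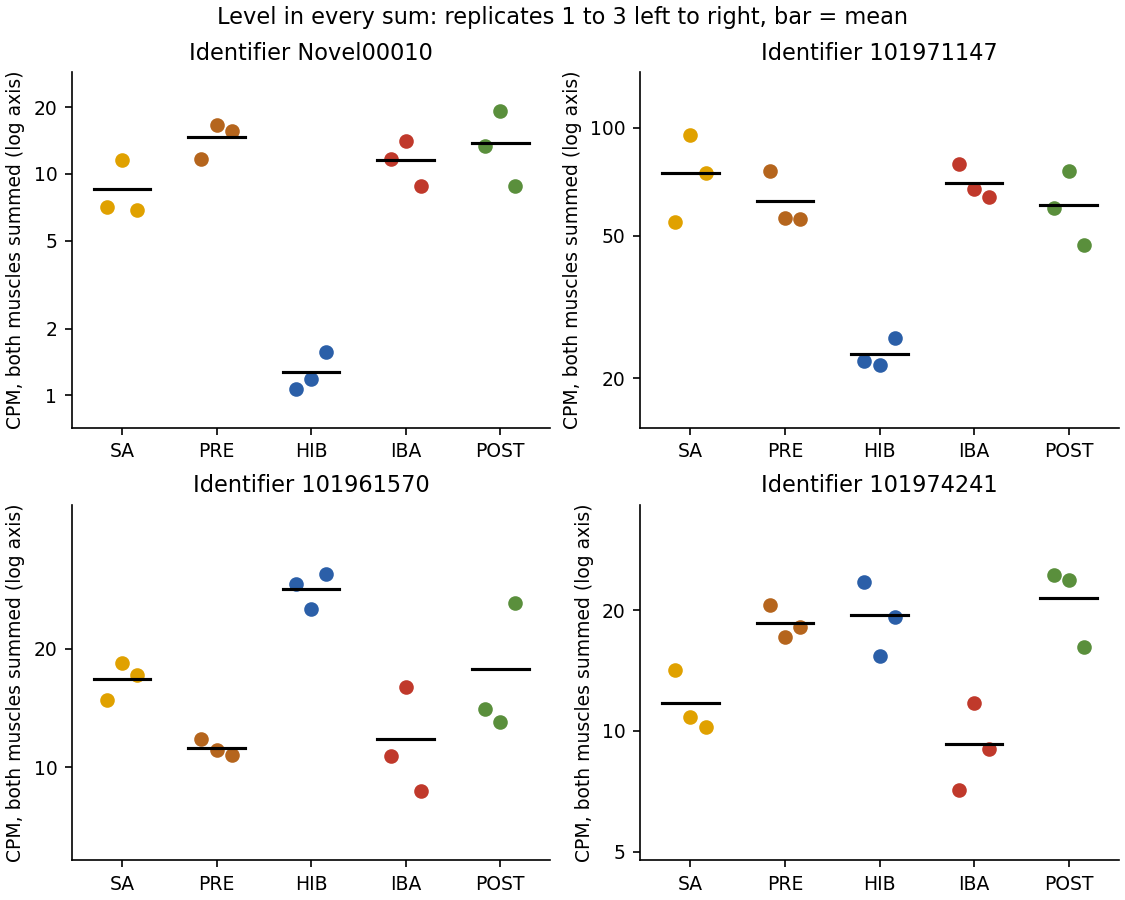
CPM of 4 identifiers (vertical log axes) in the 3 sums of each state, with replicates 1 to 3 from left to right and a bar at the mean. Novel00010 and 101971147 are low in the HIB sums, 101961570 is high in HIB and in POST replicate 3, and 101974241 is low in IBA and SA.

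The arousal change was tested for a difference between the muscles. The interaction of state and muscle was fitted with edgeR on the 30 libraries, with same-numbered libraries as pairs, and no other tool was run for it. It called 0 of 16946 identifiers, with 556 at an unadjusted p under 0.05. These were fewer than the share of 0.05 that such a threshold takes in without any difference. For Novel00010 the log2 fold change was 1.13 larger in SOL than in EDL, at an unadjusted p of 0.0334 and an edgeR adjusted p of 1.

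Below the threshold the difference between IBA and HIB was broad and small. At an unadjusted p under 0.05 there were 1680 identifiers (9.71%), of which 968 (5.59%) were higher and 712 (4.11%) lower in IBA. Their log2 fold changes had medians of 0.68 among the higher and -0.51 among the lower, and 273 were higher and 168 lower by more than 2-fold. Without any difference, an unadjusted p under 0.05 would take in a share of 0.05. The median absolute log2 fold change over all identifiers was 0.23 for IBA against HIB, 0.30 for HIB against PRE and 0.28 for IBA against PRE. The IBA and HIB sums did not overlap for 3223 identifiers (18.6%), of which 1567 (9.05%) were higher and 1656 (9.57%) lower in IBA. With 3 sums against 3, a sizeable share does not overlap even without any difference, so the 18.6% is no share of true differences. It was 29.9% for HIB against PRE and 23.6% for IBA against PRE.

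The direction at an unadjusted p under 0.05 differed with the level of the identifier. Over all tested, 5.59% were higher and 4.11% lower in IBA. Of the 3181 with a mean of 50 CPM or more over the 6 sums, 98 were higher and 236 lower in IBA (10.5% in both directions together). The median log2 fold change over all 3181 was -0.056. Of the 7290 between 5 and 50 CPM, 541 were higher and 295 lower (11.5% together), with a median of 0.031. Of the 3245 between 1 and 5 CPM, 183 were higher and 82 lower (8.17% together), with a median of 0.047. The 3590 under 1 CPM had 146 higher and 99 lower (6.82% together), with a median of 0.027. The share of counts held by the 50 most abundant identifiers differed little between the states, as given above, and its part in this split was not tested. The TMM scaling factors were 1.06 to 1.08 in the IBA sums and 1.01 to 1.02 in the HIB sums, and their part was not tested either. Identifiers with a text prefix, 955 of those tested, had 97 (10.2%) at an unadjusted p under 0.05, close to the 9.68% of the plain numbers.

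**Figure D3:**
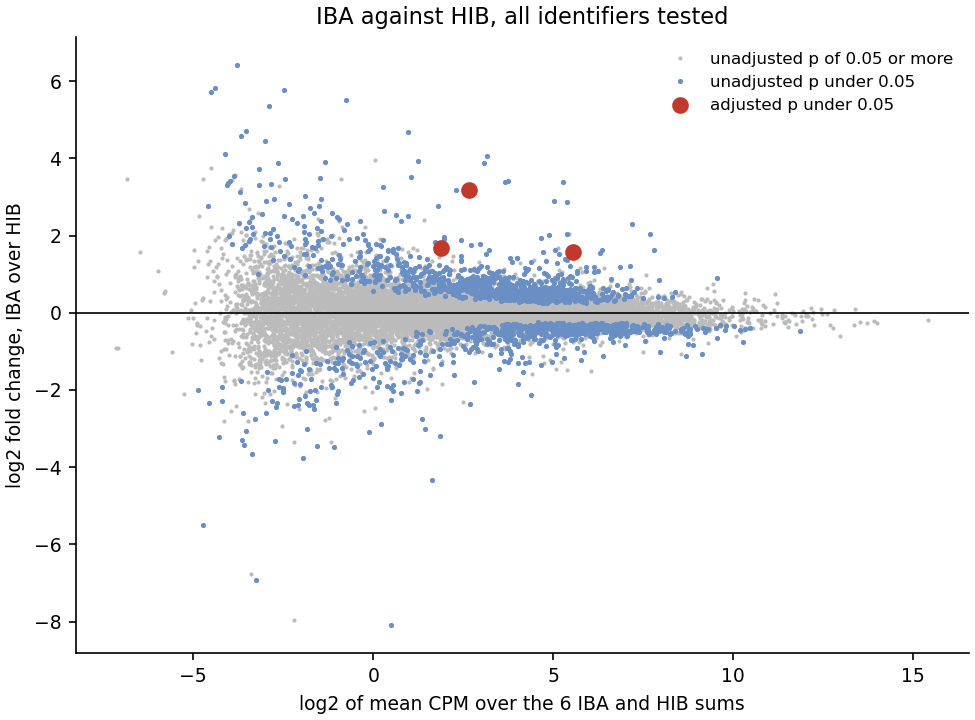
Log2 fold change of IBA over HIB (vertical) against the log2 mean CPM of the 6 sums (horizontal) for the 17306 identifiers tested, with those at an unadjusted p under 0.05 in blue and the 3 calls in red. The 3 calls lie above 0, and many larger differences at low levels did not pass.

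Other tests called more. DESeq2's Wald test on the same sums called 172 of 16944 identifiers (1.02%), 108 higher and 64 lower in IBA. A limma voom fit of the 30 libraries, with same-numbered SOL and EDL libraries as a block, called 31 of 16946 (0.183%), with 21 higher and 10 lower. All 3 edgeR calls were among both. The 2 tools shared 28 identifiers, 20 higher and 8 lower in IBA, all in the same direction, and their edgeR adjusted p ran from 0.00173 to 0.299. The 20 had log2 fold changes from 0.58 to 4.07 with a median of 1.08, and the 8 from -2.36 to -0.58 with a median of -1.20.

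The levels of these 28 were described without a test, also in the states that were not compared. PRE, SA and POST were not compared in the choice, but they shared its fits and the estimates of spread. The mean log2 CPM of the 20 was 3.66 to 3.81 in the IBA sums, 2.08 to 2.50 in the HIB sums and 3.54 to 3.78 in the PRE sums. The PRE range overlapped that of IBA and lay more than 1 log2 unit above the highest HIB sum. The 8 averaged 2.83 to 3.08 in IBA, 4.35 to 4.42 in HIB and 2.79 to 3.09 in PRE. In both directions SA (3.70 to 3.76 and 2.67 to 2.89) and POST (3.48 to 3.73 and 2.96 to 3.21) also lay on the side of IBA, so that in these means HIB was the state that stood apart. This did not hold for every member. Identifier 101974241, among the 8, averaged 18.6 CPM in PRE and 21.5 CPM in POST, near the 19.4 CPM of HIB. It averaged 9.28 CPM in IBA and 11.8 CPM in SA. The IBA and HIB sums chose these identifiers, so the gap between those states is no result by itself.

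For the wider set at an unadjusted p under 0.05 the PRE level lay between IBA and HIB. The 968 higher in IBA averaged a log2 CPM of 3.05 to 3.24 in the IBA sums, 2.28 to 2.32 in the HIB sums and 2.86 to 2.96 in the PRE sums. The 712 lower in IBA averaged 3.53 to 3.57 in IBA, 4.23 to 4.31 in HIB and 3.76 to 3.89 in PRE. PRE overlapped neither state. The IBA and HIB sums chose these identifiers, so a place of PRE between them is no result by itself.

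**Figure D4:**
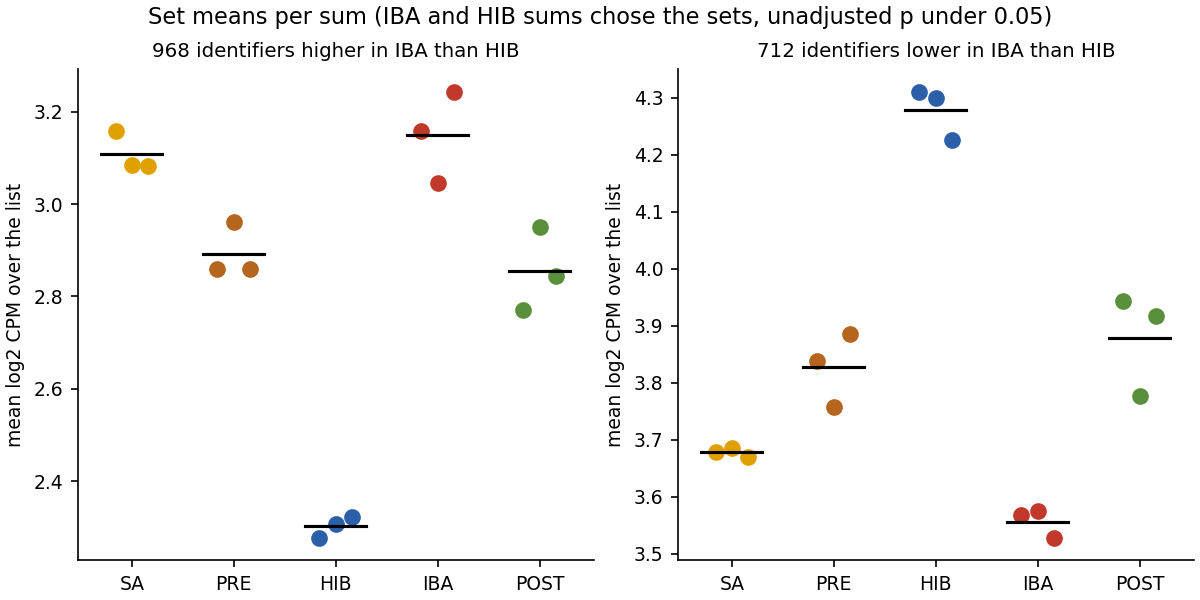
Mean log2 CPM of the 968 identifiers higher (left) and the 712 lower (right) in IBA than in HIB at an unadjusted p under 0.05, for each sum, with bars at the state means. IBA and HIB differ by choice, and the PRE, SA and POST sums lie between them or at the level of IBA.

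Whether arousal levels had returned to those before hibernation was asked directly by IBA against PRE. By edgeR 3 identifiers passed (0.0173%), 2 higher in IBA (0.0116%) and 1 lower (0.00578%). Their log2 fold changes were 1.94 in the median of the higher and -1.22 for the lower, and none of them was among the identifiers described by number. At an unadjusted p under 0.05 there were 2773 (16%), with 1445 higher (8.35%) and 1328 lower (7.67%). HIB against PRE gave 121 calls (0.699%), 53 higher (0.306%) and 68 lower (0.393%) in HIB, and 3390 (19.6%) at an unadjusted p under 0.05. The comparisons share the PRE sums. DESeq2 called 640 for IBA against PRE (3.7%), and edgeR without POST replicate 3 called 256, 89 higher and 167 lower, so that the low count depended on a sum outside the comparison. It called 10 and 14 without SA replicate 1 and POST replicate 1, and 1 without PRE replicate 1, IBA replicate 2 or IBA replicate 3. For HIB against PRE edgeR called 588 without POST replicate 3 and 263 without POST replicate 2. Leaving out PRE replicates 1, 2 and 3 in turn gave 11, 1 and 21 calls, and doing the same with the HIB sums gave 2, 12 and 16. It called 45 without SA replicate 3, and 65 and 75 without IBA replicates 1 and 2.

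A list of identifiers was then taken from HIB against SA, which compares neither IBA nor PRE, so that the choice did not fix the order of the IBA and PRE levels. The IBA and PRE sums did share its fit, with the filter, the scaling and the estimate of spread. It had 1388 identifiers (8.02%), 729 higher (4.21%) and 659 lower (3.81%) in HIB than in SA. The mean level of the identifiers higher in HIB than SA stood above that of PRE in IBA. Their mean log2 CPM was 3.61, 3.68 and 3.68 in the IBA sums and 3.40, 3.28 and 3.45 in the PRE sums, so that every IBA sum was above every PRE sum. That order was not particular to the list. The mean over all 17306 tested was 2.82 to 2.85 in the IBA sums and 2.77 to 2.81 in the PRE sums, also without overlap. The HIB sums, which chose the list, were at 3.98 to 4.05, and the POST sums, which were not compared for it, ran from 3.51 to 3.82 and overlapped IBA.

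For these 729 the fitted log2 difference of IBA over PRE had a median of 0.14, against 0.019 over all identifiers tested. It was above 0 for 494 (67.8%), against 52% of all tested, and below 0 for 235 (32.2%). At an unadjusted p under 0.05, 144 (19.8%) were higher and 33 (4.53%) lower in IBA than in PRE, against 8.35% and 7.67% of all tested. By adjusted p 1 was higher and 0 lower. The size of the list depended on single sums: 390 and 340 identifiers were called between HIB and SA without SA replicates 1 and 3, and 361, 479 and 466 when the HIB sums 1, 2 and 3 were left out in turn. With those lists the median difference of the higher identifiers was 0.17, 0.22, 0.17, 0.27 and 0.25. It was 0.21 without PRE replicate 3. In the other direction, 1808, 1531 and 1812 were called without POST replicates 1, 2 and 3 and 1444 without IBA replicate 3, and the median was lowest, at 0.10, without POST replicate 1.

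The mean level of the identifiers lower in HIB than in SA overlapped between IBA and PRE. The 659 averaged a log2 CPM of 3.10, 2.93 and 3.07 in the IBA sums and 3.02, 3.13 and 3.03 in the PRE sums, which overlapped. The HIB sums were at 2.41 to 2.49, and POST at 2.72 to 2.92, below both. The median log2 difference of IBA over PRE was -0.031, with 51.6% below 0 against 48% of all tested, and 75 (11.4%) were higher and 77 (11.7%) lower in IBA at an unadjusted p under 0.05, both above the 8.35% and 7.67% of all tested. The sign of this median was not stable. It was above 0 when 1 sum was left out in 5 cases, HIB replicate 2 (0.061), IBA replicate 2 (0.050), PRE replicate 2 (0.027), SA replicate 2 (0.0052) and POST replicate 1 (0.0031), and it was -0.10 without HIB replicate 3. By adjusted p 0 of the 659 passed in either direction. The SA sums, which with HIB chose the list, were at 3.59 to 3.78, so a place of IBA and PRE below SA is no result by itself. That the 2 lists differed in how far IBA stood from PRE is a description and was not tested.

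**Figure D5:**
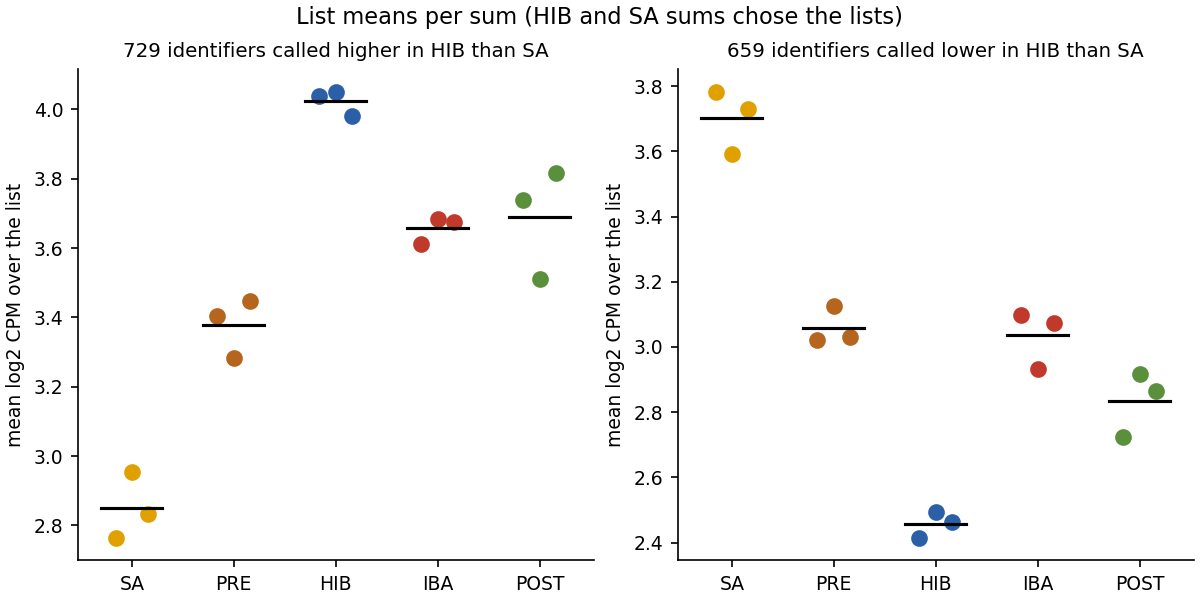
Mean log2 CPM of the 729 identifiers called higher (left) and the 659 called lower (right) in HIB than in SA, for each sum, with bars at the state means. On the left all IBA sums lie above all PRE sums and below all HIB sums, and on the right IBA and PRE overlap. The HIB and SA sums chose the lists, so a place of other states between them is no result by itself. The mean over all identifiers tested, not shown, was also higher in every IBA sum than in every PRE sum.

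The 121 identifiers called between HIB and PRE were followed in the states not compared for the choice. The 53 higher in HIB than in PRE averaged a log2 CPM of 3.30 to 3.46 in IBA, against 2.87 to 2.99 in SA, so that IBA lay above SA in every sum. POST, at 2.88, 2.87 and 3.28, was below IBA in all 3 sums. The 68 lower in HIB averaged 3.52 to 3.75 in IBA, below the 3.89 to 3.95 of SA, and 3.59 to 3.92 in POST, which overlapped IBA. The sums that chose them were at 3.86 to 3.96 in HIB and 2.38 to 2.41 in PRE for the 53, and at 2.63 to 2.82 in HIB and 4.11 to 4.24 in PRE for the 68. Because HIB and PRE were chosen to be far apart, a place of IBA between them is no result by itself.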

How the data were processed

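The authors deposited raw read counts per identifier and library, from NEBNext Ultra libraries per the labels' protocols. HISAT2 2.0.4 and HTSeq 0.9.1 are named in the submitters' processing notes. The genome build, annotation and strand setting were not given in the sources used here, so values of overlapping, antisense or near-identical genes are uncertain. Same-numbered SOL and EDL columns of a state were added. The labels do not say that such libraries share an animal. Their deviations from the group means correlated at 0.13 to 0.59 in all 15 pairs, which is why a sum counts as 1 sample.

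The 15 sums of 5 states were fitted together in R 4.3.3 with edgeR 4.0.16 (filterByExpr with a minimum count of 10, TMM, quasi-likelihood F test, Benjamini-Hochberg adjustment over all identifiers tested, threshold 0.05). The standard error is the log2 fold change divided by the square root of F. DESeq2 1.42.0 and limma 3.58.1 served as alternatives, and log2 CPM used a prior count of 2. Scripts were tested on simulated data. No 2 replicates agreed within sampling noise.

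Members and lists were chosen with earlier results of these data known. Identifiers given by number are the 2 largest rises and the 2 largest falls with an adjusted p under 0.05, a mean of at least 5 CPM and no overlap. As no fall passed, the 2 of smallest p were taken, and the third rise was under 5 CPM. Sets at an unadjusted p, sets shared by tools and those from HIB against PRE were added after seeing the data. Of 414 gene symbols listed by function, 0 matched an identifier, so those lists were not run.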

Additional observations from a re-analysis of the deposited data

How the results depend on the processing

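For the 5 identifiers described individually the IBA and HIB sums did not overlap, so leaving out 1 sum could hardly reverse their direction. They kept it in all 25 alternatives. Over these, the edgeR, DESeq2 or limma adjusted p ran from 3.45e-19 to 0.0824 for Novel00010, 3.98e-08 to 0.264 for 101971147, 2.7e-10 to 0.190 for the third call, 0.0023 to 0.653 for 101961570 and 0.00429 to 0.499 for 101974241. Identifier 101961570 passed by DESeq2 and in EDL alone, and 101974241 by DESeq2 and limma voom.

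The number of calls for IBA against HIB was 172 by DESeq2, 31 by limma voom, 1 with the replicate number as a block, 0 in SOL alone (1090 at an unadjusted p under 0.05) and 5 in EDL alone, and 1 to 4 without single sums. For HIB against PRE it was 1219 by DESeq2, 714 by limma voom, 411 with only the 6 sums compared, 38 with the block, 6 in SOL alone, 771 without all 3 POST sums, which was chosen after seeing the data, and 1 to 588 without single sums. For IBA against PRE it was 640 by DESeq2, 137 by limma voom (41 higher and 96 lower), 0 with only the 6 sums (2917 at an unadjusted p under 0.05), 0 in SOL alone (1933), 325 without POST and 1 to 256 without single sums. For HIB against SA it was 2828 by DESeq2, 2202 by limma voom, 591 in SOL, 780 in EDL, 2213 without POST and 340 to 1812 without single sums.

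The median of IBA over PRE in identifiers higher in HIB than SA was 0.23 in SOL and 0.27 in EDL alone, and 0.10 to 0.27 without single sums. In identifiers lower in HIB than SA it was 0.049 in SOL and -0.12 in EDL, and -0.10 to 0.061 without single sums, with 0.061 without HIB replicate 2 and 0.050 without IBA replicate 2, and was also above 0 without PRE replicate 2, SA replicate 2 or POST replicate 1. The causes were not tested.

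The replicate numbers do not pair states: same-numbered IBA and HIB sums deviated from their group means with a correlation of -0.10 to -0.02. With the block, the calls of 101971147 (edgeR adjusted p = 0.0771) and the third call (edgeR adjusted p = 0.0567) were lost. Other normalisation, no filter and equal depth of both muscles left the 4 counts within 1.5 times. Depth limits identifiers of low level most: 771 of those tested had a mean under 10 counts in the HIB sums.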
